A study of Temnothorax americanus and Temnothorax ambiguus and Temnothorax curvispinosus with 48 samples.

Results

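Ribosomal proteins, translation factors and tRNA enzymes were followed in slavemaking ants and their host ants of the genus Temnothorax. A contig was included when the first protein match given to it in the authors' tables of called contigs was an ant or other insect protein whose title contained ribosomal protein, translation initiation, elongation factor, tRNA or nucleotide-binding protein subunit beta-like. In all, 31 contigs of 339894 contigs with counts fulfilled this rule, out of 4088 contigs called by the authors and 2140 called contigs with a protein match. They comprised 16 contigs in T. americanus, 13 in T. pilagens and 2 in T. longispinosus. No contig was found among the 406 named called contigs of T. duloticus, the 236 of T. ambiguus or the 41 of T. curvispinosus. Because only called contigs carried a name, an absence from these lists does not say that ribosomal proteins were unchanged there. For the same reason, the direction and size of the difference between behavioural states had already chosen the contigs, and both are given here as a description without a test.

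RNA-Seq was performed on pools of 6 whole workers, with 2 workers from each of 3 colonies, in 6 species with 4 libraries per state and 48 libraries in total. T. americanus, T. duloticus and T. pilagens are slavemakers that steal brood from nests of host species, and T. longispinosus, T. curvispinosus and T. ambiguus are those hosts. In slavemakers, the raiding libraries (DR) held infertile workers taken during a raid and the non-raiding libraries (BR) infertile workers of the same kind taken outside the raiding season, which ties season to state, and these cannot be told apart. In hosts, the non-raiding libraries held foragers taken before a raid and the raiding libraries held workers defending the nest, so that task and state cannot be told apart. All workers came from wild-collected colonies that were then kept in the laboratory, where the raids were staged. They had no genetic or chemical treatment. By the study's methods both states drew on the same colonies, but the labels do not say which libraries share them.

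In the 3 species with translation contigs, libraries held 6.47- to 33.0-million counts, with BR_436 of T. americanus as the shallowest. The authors left 1 raiding library of T. americanus (DR_439), 1 raiding library of T. pilagens (DR_687) and 2 libraries of T. longispinosus (BR_425 and DR_430) out of their own test as outlying. Fold changes below rest on the kept libraries, and the left-out libraries are shown beside them. Contigs assembled from single slavemaker libraries carry short tags in their names, smadr for libraries labelled BR and smifors for libraries labelled DR. Contigs of single host libraries carry hfbr for libraries labelled BR and hfdr for libraries labelled DR, so there the last letters match the labels. The counts did not always go with these names. In T. longispinosus, some contigs named for 1 library had few or no counts in it, as given below. This leaves the match of library and counts uncertain in that species, and its directions also follow the sample labels. The reason was not tested. The slavemaker tag smadr ends in the letters dr but stands on libraries labelled BR. No source used here explains the tags, and those of the slavemakers could be read as the opposite state. Every direction given for a slavemaker follows the sample labels and would turn around if the tags, not the labels, were right. Levels are given as CPM, the counts of a contig scaled to a common library total. Contig lengths were not used here, so CPM of different proteins are not corrected for length and do not rank them by abundance.

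Ribosomes translate messenger RNA into protein and consist of a small subunit, which decodes the message, and a large subunit, which joins amino acids. Initiation factors assemble the subunits on a start codon, elongation factors deliver charged tRNA and move the ribosome, and aminoacyl-tRNA synthetases load tRNAs with their amino acids. Mitochondria carry a separate, bacterial-type apparatus with their own factors. In most animals, the cytosolic ribosomal proteins are made in roughly matched amounts, and their messages are among the most abundant in a cell.

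In T. americanus, the cytosolic ribosomal proteins with a named contig had higher levels in raiding than in non-raiding libraries, apart from RPL38, whose states overlapped. They cover 12 proteins, and 67 cytosolic ribosomal symbols were found in the RefSeq annotation of this species. Of the 12 names, 11 occurred there in the same form. Aliases were not looked up, so the remaining protein may stand there under another symbol. Ribosomal proteins without a named contig were not followed. The 12 contigs of cytosolic ribosomal proteins, 9 of the small and 3 of the large subunit, had a median log2 fold change of 0.93, against 0.00 over all tested contigs. The quasi-likelihood test of edgeR called 9 of these 12 higher, in addition to RACK1 and mitochondrial EF-Ts. Of the 16 translation contigs, 11 were thus called higher and 0 lower, beside 0.421% and 0.384% of all tested contigs. Nothing is read from this difference, since the contigs had been picked from called contigs. The 11 calls dropped to 4 without DR_437, 2 without DR_438 and 7 without DR_440. In the same fits, calls higher over all tested contigs dropped from 170 to 32, 12 and 39. A fit added after seeing the data paired libraries of both states by the order of their numbers. On the kept libraries, where 1 lacked its partner, it called 0 translation contigs higher, and 16 of all tested contigs. On all 8 libraries it called 10, and 220 of all tested contigs. CPM of kept raiding libraries lay above all non-raiding libraries for 13 of the 16 contigs, beside 6.58% of all tested contigs, and below them for 1, IF-2, beside 6.76%.

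Summed over the 12 contigs, the non-raiding libraries of T. americanus reached 2652 CPM in BR_433, 2819 in BR_434, 2832 in BR_435 and 2786 in BR_436. The raiding libraries reached 5194 CPM in DR_437, 5284 in DR_438 and 5080 in DR_440. The left-out DR_439 had 4774 CPM, below the kept raiding libraries and above every non-raiding library. The sum averaged 2772 CPM ± 82.5 (SD, n = 4) in non-raiding and 5186 CPM ± 102 (SD, n = 3) in raiding workers, and the log2 ratio was 0.90. These contigs took 0.265 to 0.283% of all counts in non-raiding and 0.508 to 0.528% in kept raiding libraries. In pools of whole bodies, a larger share of cells with many ribosomes and more ribosomal message per cell cannot be told apart.

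**Figure D1:**
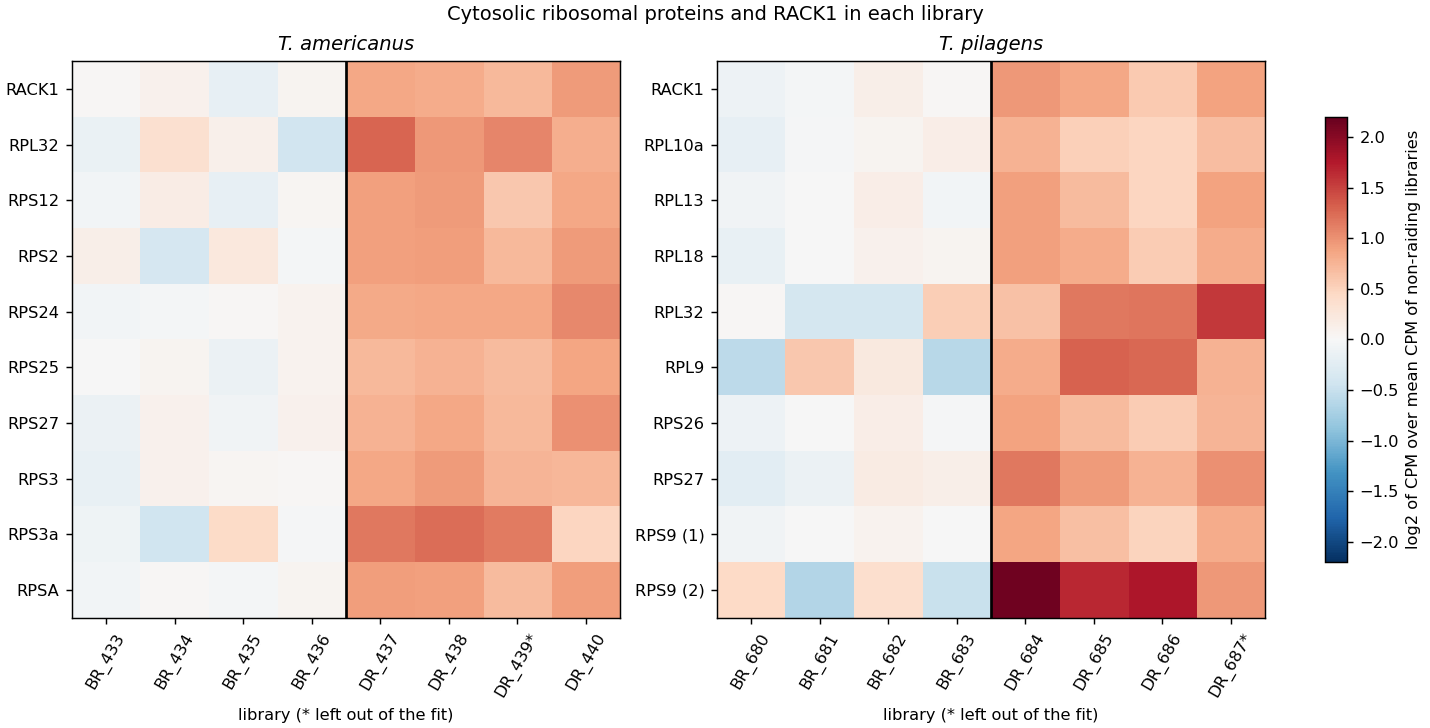
Colour gives the log2 ratio of the CPM of a library to the mean CPM of the kept non-raiding libraries for each contig, with libraries as columns and contigs as rows, for T. americanus (left) and T. pilagens (right). Contigs not named with values in the text and RPL38 are left out, asterisks mark libraries outside the fit, and the black line separates non-raiding (BR) from raiding (DR) libraries. All raiding columns, DR_439 and DR_687 included, are on the red side for the 10 contigs drawn in T. americanus and the 10 in T. pilagens.

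Among small-subunit proteins of T. americanus, RPS27, a zinc finger protein, drew the most reads. It measured 392, 459, 406 and 460 CPM in BR_433 to BR_436 and 732, 770 and 863 CPM in DR_437, DR_438 and DR_440. The left-out DR_439 had 708 CPM, and the states did not overlap (log2 fold change 0.90, SE 0.09). RPS12, a small-subunit protein, had 393, 460, 364 and 424.4 CPM in the non-raiding and 764, 787 and 742 CPM in the kept raiding libraries. Its value in DR_439 was 620 CPM, again between the states but above every non-raiding library (log2 fold change 0.92, SE 0.10). RPS3a, another protein of the small subunit, was also high but far more variable. It had 324, 258, 468 and 341 CPM in non-raiding libraries and 776, 817 and 483 CPM in kept raiding libraries, with 768 CPM in DR_439. DR_440 was thus only slightly above BR_435, and this contig was not called (log2 fold change 1.02, SE 0.24).

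The remaining small-subunit contigs of T. americanus moved by similar amounts. RPSA, the ribosomal protein related to the laminin receptor, was the most even contig between libraries. It ranged from 280 to 303 CPM in the 4 non-raiding and from 546 to 552 CPM in the 3 kept raiding libraries, with 471 CPM in DR_439 (log2 fold change 0.94, SE 0.07). RPS24, needed in human cells for maturation of small-subunit RNA, ranged from 305 to 335 CPM in non-raiding and from 567 to 658 CPM in raiding libraries, and DR_439 lay among the latter with 574 CPM (log2 fold change 0.94, SE 0.08). RPSA and RPS24 were called in all 7 fits that left out 1 library. RPS3, which helps to form the entry of the mRNA channel, averaged 177 CPM ± 12.97 (SD, n = 4) in non-raiding and 317 CPM ± 23.2 (SD, n = 3) in raiding libraries. RPS25, which some viral RNAs use for initiation in yeast and mammals, averaged 168 CPM ± 10.4 (SD, n = 4) and 288 CPM ± 17.6 (SD, n = 3). RPS2, found on a contig built from 1 library, averaged 94.6 CPM ± 16.5 (SD, n = 4) and 180 CPM ± 2.58 (SD, n = 3). The 9 called contigs of the cytosolic ribosome spanned log2 fold changes of only 0.80 to 0.94, with standard errors of 0.07 to 0.14.

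Large-subunit proteins were fewer in T. americanus. RPL32, a protein often taken as a reference in insect expression studies, had 145, 204, 173 and 120 CPM in the non-raiding libraries. Its raiding values were 390, 310 and 278 CPM, and 337 CPM in DR_439. The states did not overlap, but libraries within a state differed more than for most members, and RPL32 was not called (log2 fold change 1.04, SE 0.21). RPL38, which in mice is needed for translation of particular Hox messages, rested on a contig of 1 library with a match of only 28 residues. It had 0, 17, 0 and 7 counts in the non-raiding libraries, 2135, 0 and 332 counts in the kept raiding libraries, and 0 in DR_439. DR_437 alone carried most of these counts, the states overlapped, and the fitted log2 fold change of 6.31 has an SE of 1.80.

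RACK1, named guanine nucleotide-binding protein subunit beta-like in the match, sits on the small subunit and links it to signalling kinases. In T. americanus it had 212, 222, 185 and 217 CPM in the non-raiding and 377, 369 and 401 CPM in the kept raiding libraries, with 344 CPM in DR_439. Its log2 fold change of 0.89 (SE 0.09) lay inside the range of the called ribosomal proteins. Mitochondrial EF-Ts recharges the mitochondrial elongation factor that delivers tRNA. It rose from 14.5, 12.9, 14.7 and 14.2 CPM to 33.5, 30.7 and 25.9 CPM (log2 fold change 1.11, SE 0.13). With 19.9 CPM, DR_439 was above all non-raiding libraries but nearer to their mean than to the raiding mean.

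The contig named translation initiation factor IF-2 went the other way. It had 330, 394, 251 and 223 CPM in non-raiding libraries against 131, 132 and 128 CPM in kept raiding libraries and 104 CPM in DR_439. All raiding libraries were below all non-raiding ones, and the contig was not called by the quasi-likelihood test (log2 fold change -1.18, SE 0.21). IF-2 is the bacterial and mitochondrial type of factor that brings the initiator tRNA to the ribosome. The match covered only 79 residues at 89.9% identity, from base 2268 to base 2504 of the contig, so that the name is uncertain. EIF3C, a subunit of the factor that holds the small subunit ready for initiation, was found on a contig of 1 library with a match of 37 residues. It had 0 counts in 6 libraries, 140 in DR_439 and 96 in DR_440, and was not tested because of low counts.

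In T. pilagens, 9 contigs for 8 cytosolic ribosomal proteins were found, 4 of the small and 5 of the large subunit, and all had higher CPM in every kept raiding library than in every non-raiding library. Their median log2 fold change was 0.72, against 0.02 over all tested contigs. Of the 13 translation contigs, 8 were called higher, beside 0.94% of all tested contigs, and 1 was called lower, beside 1.94%. The 8 calls dropped to 0 without BR_681 or DR_684 and to 2 without DR_685. Over all tested contigs, calls higher dropped from 361 to 94 without BR_681, 54 without DR_684 and 114 without DR_685. The 1 lower call was lost without BR_681, BR_682, DR_684 or DR_686. Over all tested contigs, calls lower dropped from 744 to 257, 300, 194 and 507 in these fits. The added fit with paired libraries called 0 translation contigs higher and 0 lower on the kept libraries, where 1 lacked its partner. It called 13 higher and 83 lower of all tested contigs. On all 8 libraries it called 8 translation contigs higher and 1 lower, and 187 and 551 of all tested contigs. The states did not overlap for 10 contigs higher in raiding libraries, where this held for 9.78% of all tested contigs. They also did not overlap for 2 contigs lower in raiding libraries, beside 7.69%. As in T. americanus, these shares describe contigs that were chosen on the same contrast.

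The 9 contigs summed to 960 CPM in BR_680, 1027 in BR_681, 1150 in BR_682 and 1095 in BR_683. The kept raiding libraries had 2051 CPM in DR_684, 1845 in DR_685 and 1634 in DR_686, and the left-out DR_687 had 1965 CPM. The means were 1058 CPM ± 82.4 (SD, n = 4) and 1843 CPM ± 209 (SD, n = 3), a log2 ratio of 0.80. DR_684 was the highest kept raiding library for 8 of 10 contigs of the cytosolic ribosome and RACK1, and DR_686 the lowest for 7. Among non-raiding libraries, BR_680 was the lowest for 7 and BR_682 the highest for 6 of these 10 contigs. The contigs of a library therefore deviated together and are not independent of each other.

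RPS27 again drew the most reads of the ribosomal contigs, with 218, 233, 289 and 279 CPM in non-raiding libraries. It had 571, 489 and 432.9 CPM in the kept raiding libraries and 514 CPM in DR_687 (log2 fold change 0.92, SE 0.13). RPL18, on a contig of 1 library, had 174, 193, 209 and 204 CPM against 363, 345 and 289 CPM, and 345 CPM in DR_687 (log2 fold change 0.72, SE 0.10). RPL13 had 168, 176, 197 and 170 CPM against 331, 289 and 246 CPM, and 330 CPM in DR_687 (log2 fold change 0.65, SE 0.11). For these 3 contigs, the lowest raiding library was well above the highest non-raiding library. RPS26, which lies at the exit of the mRNA channel, averaged 156 CPM ± 11.8 (SD, n = 4) and 257 CPM ± 30.3 (SD, n = 3). RPL10a, matched over 54 residues, showed the smallest difference, with 55.0 CPM ± 5.27 (SD, n = 4) and 83.0 CPM ± 9.24 (SD, n = 3). Its log2 fold change was 0.54 (SE 0.10).

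RPS9, which takes part in accurate decoding, was found on 2 contigs of T. pilagens with the same best match, so that they share a target. The first averaged 168 CPM ± 7.71 (SD, n = 4) and 271 CPM ± 35.4 (SD, n = 3), with 297 CPM in DR_687 (log2 fold change 0.64, SE 0.09). The second had 6.29, 2.95, 5.97 and 3.31 CPM in non-raiding libraries and 20.5, 14.6 and 15.8 CPM in kept raiding libraries. Its value in DR_687 was 8.95 CPM, between both states (log2 fold change 1.82, SE 0.30). Reads could be split between such near-identical contigs, and the second is therefore uncertain. RPL9 had 9.19, 20.9, 16.0 and 8.99 CPM against 24.3, 34.0 and 33.1 CPM, with 23.4 CPM in DR_687. RPL32 had 33.6, 25.4, 25.3 and 48.1 CPM against 52.0, 73.7 and 75.1 CPM, with 97.6 CPM in DR_687. Both were above in all raiding libraries but varied within states, and neither was called (log2 fold changes 1.10, SE 0.31, and 0.97, SE 0.25).

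RACK1 of T. pilagens followed the ribosomal proteins, with 215, 226, 253 and 236 CPM in non-raiding and 450, 418.3 and 346 CPM in kept raiding libraries. DR_687 lay within the raiding range (log2 fold change 0.75, SE 0.10). The IF-2 contigs again went the other way. The contig with the longer match, 118 residues at 79.7% identity, had 174, 319, 396 and 176 CPM in non-raiding libraries. It had 49.4, 75.7 and 34.7 CPM in kept raiding libraries and 24.0 CPM in DR_687, the lowest of all (log2 fold change -2.37, SE 0.39). This was the 1 translation contig called lower. The other IF-2 contig, matched to the same record over 68 residues at 67.6% identity, had 54.1, 98.4, 110 and 62.1 CPM against 26.6, 42.3 and 16.4 CPM, with 25.6 CPM in DR_687. It was lower in all raiding libraries and not called (log2 fold change -1.56, SE 0.37). Mitochondrial IF-2, matched over 699 residues on a contig of 1 library, had 26.7, 37.9, 22.8 and 56.8 CPM against 4.59, 13.9 and 23.2 CPM. Its states overlapped, since DR_686 exceeded BR_682, and DR_687 had 21.0 CPM (log2 fold change -1.42, SE 0.53).

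**Figure D2:**
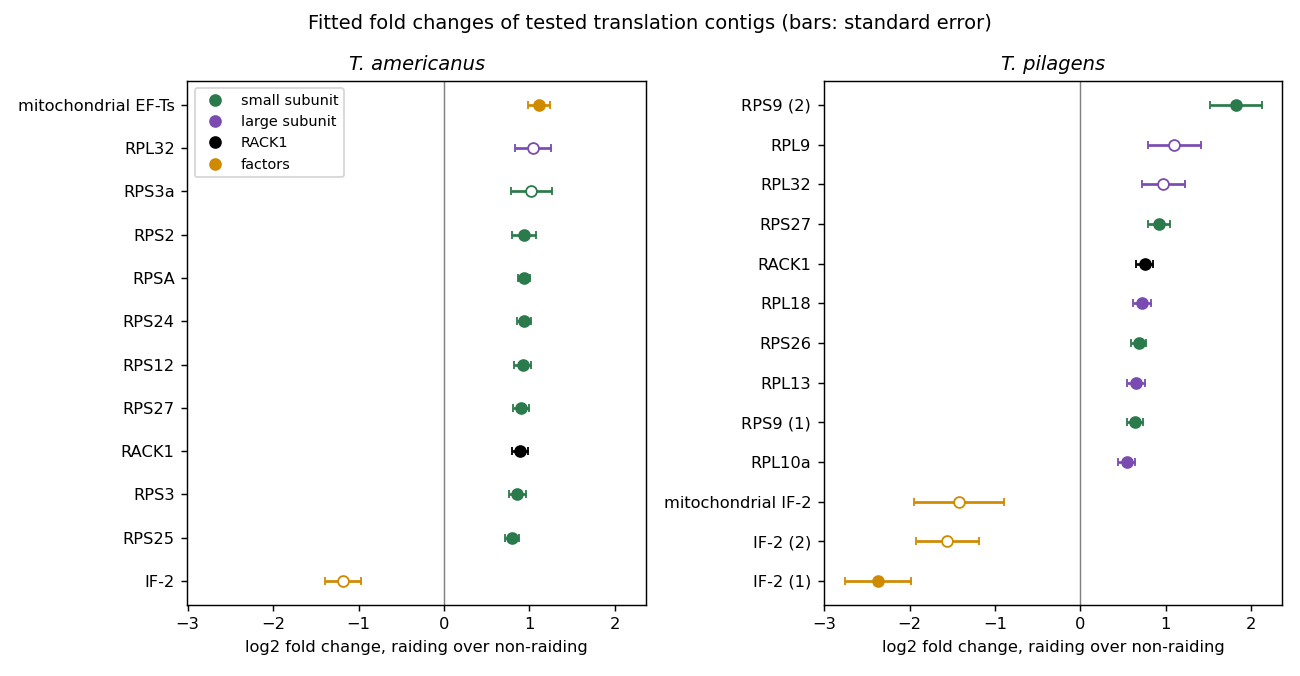
Points give the fitted log2 fold change, raiding over non-raiding, of the tested translation contigs named with values in the text, except RPL38, for T. americanus (left) and T. pilagens (right), with bars for the standard error. Filled points were called by edgeR, open points were not, and colour separates small subunit, large subunit, RACK1 and factors. All cytosolic ribosomal proteins drawn lie above 0, and the IF-2 contigs lie between -1.18 and -2.37.

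The slavemakers shared 2 cytosolic ribosomal proteins, RPS27 and RPL32, which is 16.7% of the 12 proteins of T. americanus and 25.0% of the 8 of T. pilagens. RACK1 and IF-2 were also found in both. RPS27 had log2 fold changes of 0.90 (SE 0.09) and 0.92 (SE 0.13) in T. americanus and T. pilagens. RACK1 had 0.89 (SE 0.09) and 0.75 (SE 0.10), and RPL32 had 1.04 (SE 0.21) and 0.97 (SE 0.25). IF-2 had -1.18 (SE 0.21) in T. americanus and -2.37 (SE 0.39) for the longer match in T. pilagens. The fits were made within a species, and differences between species were not tested.

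DR_439 and DR_687 did not enter the authors' calls and so give values the choice of contigs did not use. In T. americanus, DR_439 was above all non-raiding libraries for 12 of the 13 tested contigs of the cytosolic ribosome and RACK1, all but RPL38, beside 20.9% of all tested contigs. On log2 CPM, these contigs had a median difference of 0.74 from the non-raiding mean and of -0.15 from the kept raiding mean. In T. pilagens, DR_687 was above all non-raiding libraries for 10 of 10 such contigs, beside 25.1% of all tested contigs. The median difference was 0.91 from the non-raiding mean and 0.16 from the kept raiding mean. Counting all tested translation contigs, 13 of 15 in DR_439 and 12 of 13 in DR_687 were nearer to the kept raiding mean, beside 63.5% and 56.8% of all tested contigs. Nearly all contigs called higher in the whole table did the same, with 170 of 170 in DR_439 and 341 of 361 in DR_687 above all non-raiding libraries. With 1 left-out library per species, and non-raiding libraries that had entered the calls, no test was made.

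**Figure D3:**
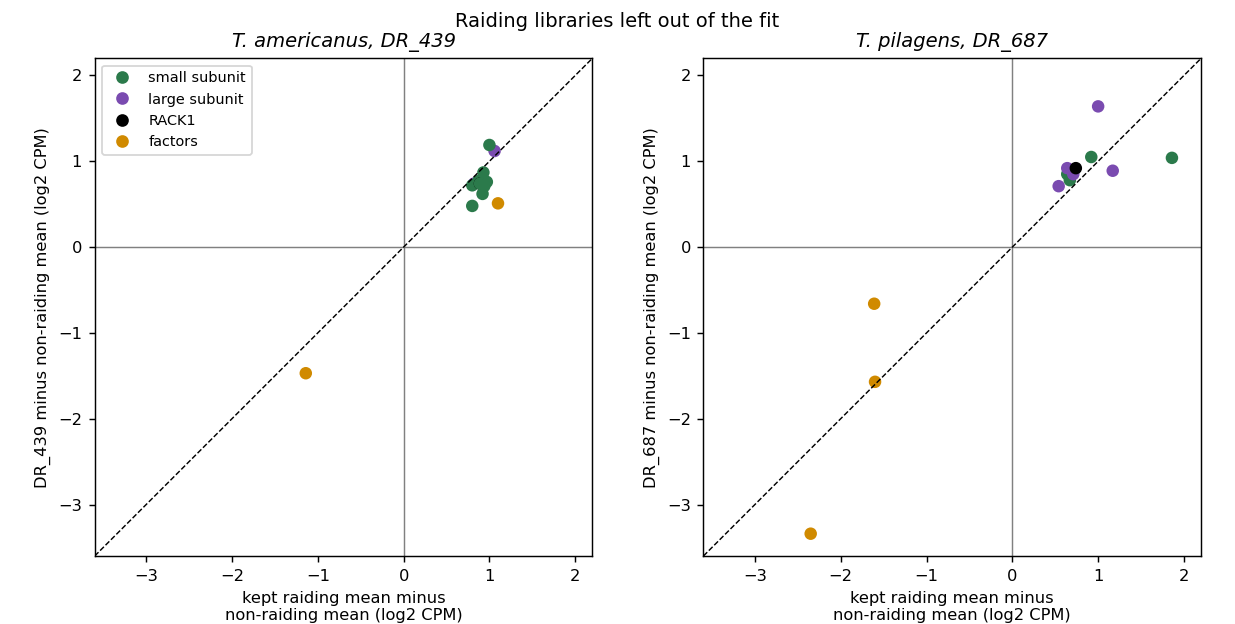
For each tested translation contig except RPL38, the horizontal axis gives the mean log2 CPM of the kept raiding libraries minus the non-raiding mean, and the vertical axis gives the same difference for the left-out raiding library, DR_439 of T. americanus (left) and DR_687 of T. pilagens (right). The dashed line marks equal differences, and both axes share the non-raiding libraries. All ribosomal contigs lie in the upper right and the IF-2 contigs in the lower left.

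Ribosomal contigs drew many reads for a single contig, without a correction for length. Without RPL38, their mean log2 CPM over kept libraries lay above that of 96.4% (RPS2) to 99.7% (RPS27) of all tested contigs in T. americanus. In T. pilagens this ranged from 70.7% for the second RPS9 contig to 99.2% for RPS27. The SD of log2 CPM between libraries of a state had a median of 0.118 over 11 ribosomal contigs of T. americanus, from 0.039 for RPSA to 0.383 for RPS3a. All 1331 contigs of like level had a median SD of 0.151. In T. pilagens the median was 0.153 over 9 contigs, against 0.167 over 10933 contigs of like level. High level and small spread both make a call easier, and these values are no support for the difference between states.

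Markers of other tissues were sought by title among the same called contigs, so their counts also describe contigs chosen on this contrast. In T. americanus both contigs matched to titin, the giant spring protein of muscle, were called higher, beside 0.421% of all tested contigs, and their summed level was 302 to 382 CPM in non-raiding and 618 to 667 CPM in kept raiding libraries. In T. pilagens, the muscle list held titin, unc-89, paramyosin and troponin, and its title search also caught myosin-IB and a myosin light chain kinase. Of its 11 contigs, 6 were called higher and 0 lower, beside 0.94% and 1.94% of all tested contigs. Of the 10 tested, 7 had log2 fold changes above 0 and 3 below, and the sum was 1060 to 1380 CPM against 1540 to 1640 CPM. Of its 11 muscle contigs, 1 had no count in non-raiding and 0 had none in raiding libraries. The gut list of T. pilagens held proteases and sugar-cleaving enzymes. Its title search also caught a trypsin inhibitor and a puromycin-sensitive aminopeptidase. Of its 20 contigs, 10 were called lower and 0 higher, beside 1.94% and 0.94% of all tested contigs. Of the 13 tested, 11 had log2 fold changes below 0 and 2 above, and the sum was 3350 to 4530 CPM against 2000 to 2200 CPM. In T. americanus 2 of 9 gut contigs were called lower and 0 higher, beside 0.384% and 0.421% of all tested contigs. That list also caught a title of a chymotrypsin inhibitor. Of its 5 tested contigs, 4 had log2 fold changes below 0 and 1 above, and the sums overlapped with 217 to 344 CPM and 175 to 808 CPM. Gut contigs without any count numbered 1 in non-raiding and 3 in raiding libraries both in T. americanus and in T. pilagens. Vitellogenin-6, the 1 fat body contig of T. pilagens, had 24.9 to 221 CPM in non-raiding and 198 to 552 CPM in kept raiding libraries (log2 fold change 2.02). The vitellogenin receptor, its 1 ovary contig, had 10.3 to 23.7 CPM against 7.04 to 9.49 CPM (log2 fold change -1.07). Neither was called, and T. americanus had no contig on these lists. The part of such tissue shares in the ribosomal values was not tested.

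Other genes of protein synthesis and turnover were looked for by title among the called contigs. No contig was named for ribosome biogenesis or for co-translational targeting in any species. Protein turnover had 11 contigs in T. pilagens, of which 5 were called lower and 0 higher, beside 1.94% and 0.94% of all tested contigs. These contigs, too, had been called by the authors on this contrast. Of the 10 tested, 8 had log2 fold changes below 0 and 2 above, a contig of the ubiquitin ligase MYCBP2 with 0.78 (SE 0.22) and ubiquitin carboxyl-terminal hydrolase 32 with 0.87 (SE 0.23). Another contig with the MYCBP2 title went the other way, with -0.79 (SE 0.24), and none of these was called. Those called lower were the proteasome subunits alpha type-3, alpha type-5 and alpha type-2, the proteasome maturation protein and ubiquitin conjugation factor E4 A, which all belong to the pathway that degrades tagged proteins. The proteasome maturation protein averaged 74.5 CPM in non-raiding and 48.9 CPM in raiding libraries (log2 fold change -0.65, SE 0.06). Proteasome subunit alpha type-3 averaged 61.0 and 40.7 CPM (log2 fold change -0.63, SE 0.10). The insulin receptors, which act upstream of growth control by protein synthesis, were found on 2 contigs of T. pilagens. Their averages were 32.5 and 49.6 CPM for insulin receptor and 20.7 and 34.9 CPM for insulin receptor-2, and neither was called. T. americanus had 1 contig for turnover, ubiquitin carboxyl-terminal hydrolase 8, with averages of 1.003 and 3.75 CPM, which was not called.

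In the host T. longispinosus, the 2 translation contigs had lower means in the kept raiding libraries, and they were not compared with the slavemakers by a test. RPLP0 is the base of the large-subunit stalk that recruits elongation factors, and was found on a contig of 1 library. It had 86.0, 53.0 and 52.7 CPM in the non-raiding libraries BR_426, BR_427 and BR_428, and 30.3, 24.7 and 32.3 CPM in the raiding (defending) libraries DR_429, DR_431 and DR_432. The kept libraries did not overlap, as for 3.55% of all tested contigs in this direction (log2 fold change -1.20, SE 0.22). The left-out libraries lay on the opposite sides, with 21.3 CPM in the non-raiding BR_425, the lowest of all 8, and 101 CPM in the raiding DR_430, the highest. With all 8 libraries the log2 fold change of RPLP0 was -0.25, and the difference thus rests on leaving these libraries out. The quasi-likelihood test of edgeR called 0 contigs in T. longispinosus, 0.0% of those tested. Of 38320 contigs tested, 1447 had an unadjusted p under 0.05, a share below the 0.05 that an absence of differences would give. The likelihood ratio test called 83 contigs and DESeq2 113, RPLP0 included in both. Tissue markers of T. longispinosus were also contigs that the authors had called on this contrast in the kept libraries. A difference between states was thus set by their choice, and their levels in BR_425 and DR_430 are not given here. The summed level of 8 gut contigs was 29.3 to 90.4 CPM in non-raiding and 508 to 2760 CPM in raiding libraries, with 4 of 8 without a count in non-raiding libraries. For 2 contigs of vitellogenin, the yolk precursor made in the fat body, it was 32.6 to 53.8 CPM against 87.8 to 338 CPM. Their part in the RPLP0 values was not tested.

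**Figure D4:**
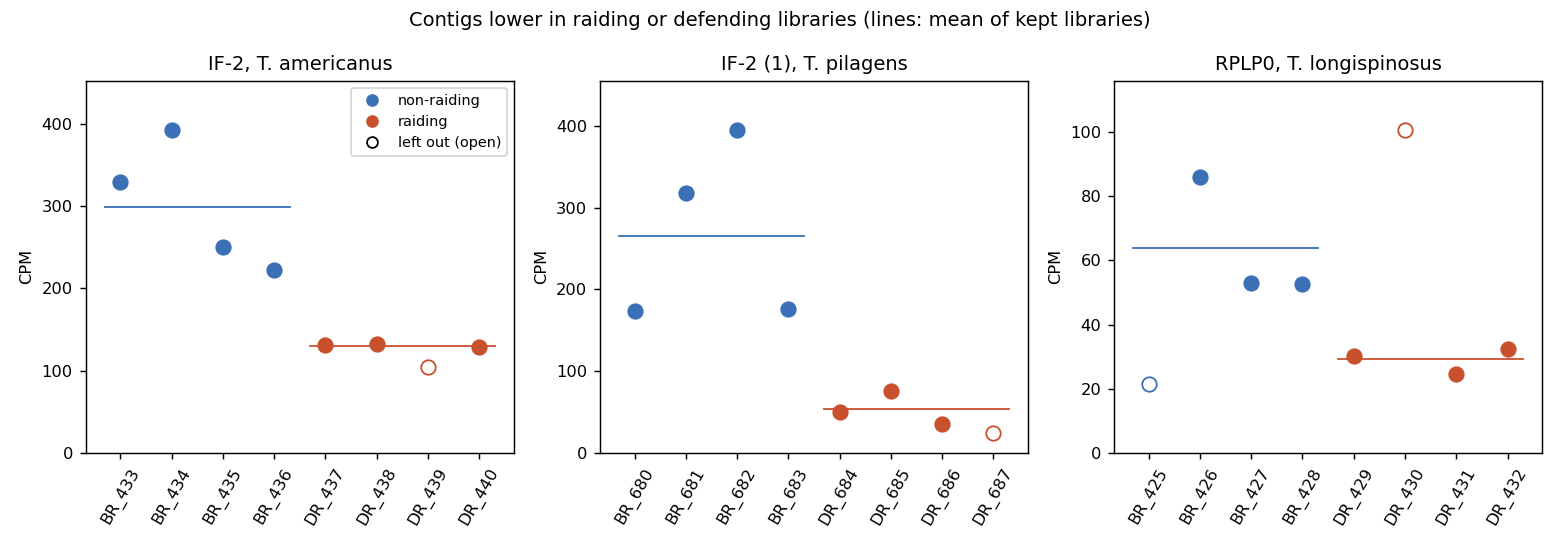
Points give CPM in each library for the IF-2 contig of T. americanus (left), the IF-2 contig with the longer match in T. pilagens (middle) and RPLP0 in T. longispinosus (right), with blue for non-raiding, red for raiding or defending, and open points for libraries outside the fit. Lines mark the mean of the kept libraries. The open points lie with their state for IF-2, while for RPLP0 the left-out libraries, at 21.3 and 101 CPM, lie outside the range of the kept libraries on the opposite sides.

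Mitochondrial cysteinyl-tRNA synthetase, which loads cysteine onto mitochondrial tRNA, was the other contig of T. longispinosus, built from 1 library. It had 148, 115, 40 and 0 counts in BR_425 to BR_428 and 0, 27, 0 and 0 counts in DR_429 to DR_432. The match covered 41 residues at 65.9% identity, and the contig was not tested because of low counts. Of the kept libraries, BR_426 and BR_427 alone had counts. By its name the contig was built from library DR_429, which had 0 counts on it.

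The organism rule removed 13 called contigs whose titles matched the keywords but whose match was fungal, and no title was removed as a ribosomal protein kinase. In T. longispinosus, 12 contigs matched Mucor circinelloides, and BR_426 held 1144 of their counts, 88.3% of the total over 8 libraries. BR_428 had 99 counts, DR_430 40, BR_427 10, and the other 4 libraries at most 1. Several of these contigs were by name built from library BR_425, which held 1 count over all 12. In T. americanus, 1 contig matched an elongation factor of Aspergillus fumigatus, with 175 counts in BR_435 and at most 3 in any other library. These contigs were not counted with the ants. The authors' own adjusted p-values were not used here, so contigs just inside and just outside their threshold are not listed.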

How the data were processed

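Whole-body RNA of worker pools was sequenced by the authors, assembled de novo per species and mapped with TopHat2 2.0.13 and Bowtie, and eXpress gave the counts. The authors deposited whole-number counts per contig without normalization, used here as raw counts. A second deposited table per species holds called contigs with the authors' log2 fold changes, p-values and best protein match. Only the match (protein name, organism, matched residues and percent identity) was used, and the authors' test results were not. Counts of members in the 2 tables differed by up to 4.25%. Another 88 columns of per-sample values were not used. Protein names were set beside RefSeq symbols of T. americanus, where 11 of 12 were found in the same form, without a look-up of aliases.

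Each species was fitted alone on the kept libraries with edgeR 4.0.16 (limma 3.58.1, R 4.3.3): filterByExpr with a minimum count of 10, TMM, glmQLFit and glmQLFTest, Benjamini-Hochberg at 0.05 over all tested contigs. SE was taken as the size of the log2 fold change over the square root of F. CPM uses library totals, and log2 CPM uses TMM and a prior count of 2. Libraries held 5.94- to 49.13-million counts when kept, so that 1 CPM equals 6.47 counts in the shallowest library of T. americanus. Mean and SD are over kept libraries. The p-values behind calls set the difference between states against the spread between these pools. The main fit treated the pools as unpaired, although both states drew on the same colonies. Alternatives were all 8 libraries, RLE factors, library totals, no filter, a likelihood ratio test, DESeq2 1.42.0, and leaving out each library. A replicate block was added after seeing the data. The fit was tested on simulated data. Named with every library are proteins found in several species and every member of small classes and species. Also so named are the 3 ribosomal contigs with the highest mean CPM and the 3 largest fold changes in each direction per species. Further examples were added. Members, lists and this naming were chosen with earlier results of these data known. Python 3.11.15, pandas 2.3.3 and matplotlib 3.10.9 were used for summaries and figures. Some members are counted in sums and medians but not reported here by name.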

Additional observations from a re-analysis of the deposited data

Results flagged for a closer look

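Counts outside the main comparison were found on contigs with fungal translation matches. BR_426 of T. longispinosus held 1144 counts on 12 contigs matched to Mucor, and BR_435 of T. americanus held 175 counts on 1 contig matched to Aspergillus, both above the 3 counts that an empty library would allow. Among the non-raiding libraries of T. americanus and T. pilagens, no library stood far from the other 3 in the CPM of a translation contig or in the summed ribosomal CPM, in 31 groups of 4 libraries examined. The kept raiding libraries and the kept libraries of T. longispinosus number 3 per state and were not examined in this way. Chance would single out about 1 in 20 such groups.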

How the results depend on the processing

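The median log2 fold change of the cytosolic ribosomal contigs was 0.93 in T. americanus and 0.72 in T. pilagens, with 0.90 to 0.94 and 0.66 to 0.80 when 1 library was left out. With the mean in place of the median it was 1.36, where RPL38 weighs in, and 0.89. The log2 ratio of summed CPM ranged from 0.88 to 0.92 and from 0.72 to 0.88 without 1 library. Calls depended more on single libraries. Contigs called higher in T. americanus ranged from 2 to 11 when 1 library was left out, with 4 without DR_437, 2 without DR_438 and 7 without DR_440. In T. pilagens they ranged from 0 to 8, with 0 without BR_681, 0 without DR_684 and 2 without DR_685. In the same fits, calls higher over all tested contigs dropped from 170 to 32, 12 and 39 in T. americanus. They dropped from 361 to 94, 54 and 114 in T. pilagens. Fewer libraries lower the power of the test, and the cause was not tested further. Contigs called lower in T. americanus numbered 1 in place of 0 with all 8 libraries, library totals, the likelihood ratio test and DESeq2, and 0 to 1 without 1 library, with 1 without BR_436. In T. pilagens they numbered 2 in place of 1 with all 8 libraries, the likelihood ratio test and DESeq2, and 0 to 1 without 1 library, with 0 without BR_681, BR_682, DR_684 or DR_686. In T. longispinosus 1 was called lower by the likelihood ratio test and by DESeq2, and 0 in the main test. No fold change of a tested translation contig changed its sign under these alternatives. The labels pair no libraries, but tags in contig names repeat pool numbers in both states in the order of the library numbers. A replicate block by this order was added after seeing the data. Deviations from the state mean correlated at 0.07 to 0.12 in T. americanus, 0.03 to 0.10 in T. pilagens and 0.08 to 0.17 in T. longispinosus for libraries of the same place, and at most at 0.06 otherwise. All 8 libraries of each of these species were closest to the library of the same place. Both states drew on the same colonies by the study's methods. Which libraries pair is a hint from the data and the tags, not from the labels. With this replicate block on the kept libraries, 0 translation contigs were called higher in T. americanus and T. pilagens and 0 lower in T. pilagens. Here 1 library of each of these species lacked its partner. Over all tested contigs, this fit called 16 and 13 higher, and 83 lower in T. pilagens. With the replicate block on all 8 libraries, 10 and 8 translation contigs were called higher, and 1 and 1 lower. Over all tested contigs, 220 and 187 were called higher, and 267 and 551 lower. The medians were 0.91 and 0.74 on the kept and 0.86 and 0.74 on all 8 libraries. With 3 or 4 libraries per state, BR_436 at 6.47-million counts and RPL38, EIF3C and the tRNA synthetase resting on few libraries, low contigs were the least certain.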
